A study of Mus musculus with 4 samples.

Results

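The genes described here are 10 nuclear receptor genes with RNA in mouse embryonic stem cells (ESCs), namely Nr5a2, Nr6a1, Esrra, Nr2f6, Rara, Rarg, Rxra, Rxrb, Ppard and Nr1h2. They were taken by gene symbol from the 4 deposited expression files, in which each of them had 1 feature among 17710 features with a symbol and 19645 in all, and they are 10 of the 49 receptor genes of the mouse family listed for this work. The 4 libraries were 2 of Bmal1 WT ESCs and 2 of Bmal1 KO ESCs, and all were made from total RNA after removal of ribosomal RNA. The KO cells were made with CRISPR-Cas9 and carry a frameshift in Bmal1, the gene of a circadian clock transcription factor. They form a single line, and ESCs were grown on gelatin with serum and LIF, the cytokine that keeps them undifferentiated. An effect of the genotype therefore cannot be told apart from other ways in which the KO line differs from the WT cells. The study's methods call the libraries of a group biological replicates. The labels name no separate cultures, so the source of the spread between libraries of a group is not known. The p-values set the difference between the groups against that spread, moderated by the spread of the other features tested.

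Nuclear receptors are transcription factors with a zinc-finger domain that binds DNA and, in most members, a pocket that holds a small lipid-like ligand. RARA and RARG bind retinoic acid, PPARD binds fatty acids and NR1H2, also called LXRβ, binds oxysterols, and each of these works as a heterodimer with an RXR, here RXRA or RXRB. NR5A2 and NR6A1 bind DNA without an RXR and are known in ESCs for opposite actions on the pluripotency gene Pou5f1, which NR5A2 activates and NR6A1 represses. ESRRA, an orphan receptor, drives genes of mitochondrial metabolism, and NR2F6 is an orphan receptor of the COUP-TF family that mostly represses.

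Promoter sequences are shown for those 4 genes whose windows held a binding motif within 100 bases of an annotated start, because BMAL1 binds the E-box and nuclear receptors bind the half-site. RefSeq windows on GRCm38.p6, of 250 bases before and 50 bases after each start site, were found for 10 of the 10 genes, with 18 windows in all. The E-box CACGTG, which reads the same on both strands, lay in windows of 1 of the 10 genes, Rara, and in those of 8.09% of 27025 genes. The half-site, read as AGGTCA on either strand and so also as TGACCT, lay in windows of 5 of the 10, namely Nr5a2, Nr6a1, Rara, Rarg and Rxra, and of 18.1% of all genes. Some genes have several windows, and counted by window it lay in 5 of the 18 and in 16.3% of all 32851. The longer form TCAAGGTCA or TGACCTTGA, the site known for ESRRA and NR5A2, was in none of the 18 windows and in those of 0.466% of all genes; every copy of it also holds the half-site. A match is a stretch of letters and says nothing of binding. The stretches run 5′ to 3′ on the strand of the gene, with the motif in capitals; that of Rara covers chr11:98937636-98937725 on the plus strand, that of Nr5a2 chr1:136960449-136960548 on the minus strand, that of Nr6a1 chr2:38784516-38784615 on the minus strand and that of Rxra chr2:27709192-27709291 on the plus strand.
Rara: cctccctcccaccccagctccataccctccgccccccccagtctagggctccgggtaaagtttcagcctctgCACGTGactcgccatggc
Nr5a2: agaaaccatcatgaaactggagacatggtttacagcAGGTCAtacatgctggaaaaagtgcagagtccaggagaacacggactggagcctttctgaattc
Nr6a1: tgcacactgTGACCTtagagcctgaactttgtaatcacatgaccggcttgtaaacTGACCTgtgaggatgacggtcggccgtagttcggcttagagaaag
Rxra: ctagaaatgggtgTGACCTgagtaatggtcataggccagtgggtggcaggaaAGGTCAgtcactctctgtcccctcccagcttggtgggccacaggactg
The Rara stretch holds the last 60 bases before the start site at 98937696 and the first 30 from it. The E-box begins at base 13 of the transcript from that start. It also begins 10 bases before another annotated start of Rara. The half-site of Rara lay in a different window, from base 34 of the transcript there, and is not shown. The other stretches are the 100 bases before a start site, with the half-site 64 bases before the start in Nr5a2, 91 and 45 bases before it in Nr6a1, and 87 and 48 bases before it in Rxra. The Nr6a1 and Rxra starts lie inside the genes, downstream of another annotated start whose window held no copy, and the deposited values give 1 level per gene and do not tell the starts apart.

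Of the 10 genes, Nr5a2 alone passed the test between WT and KO, with less RNA in KO, and none changed over 2-fold. Across all 12990 features tested, 12.5% passed at an adjusted p under 0.05, and 4.14% passed and changed over 2-fold. The values are FPKM, a unit of fragments scaled to transcript length and to the mapped fragments of the library. The sources used here do not state how the libraries were scaled to each other. The test was limma's moderated test on log2(FPKM + 0.1), with Benjamini-Hochberg adjustment over all features tested, and a fold change is on that scale. The 2 KO libraries lay outside the range of the 2 WT libraries for 4 of the 10 genes, above it for Nr6a1 and Nr2f6 and below it for Nr5a2 and Rxra. Over all features 58.8% did not overlap, 27.0% with KO above and 31.7% with KO below. The median log2 fold change was −0.06 over the 10 genes and −0.02 over all features. In bulk RNA, fewer cells with a transcript and less of it per cell cannot be told apart.

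**Figure D1:**
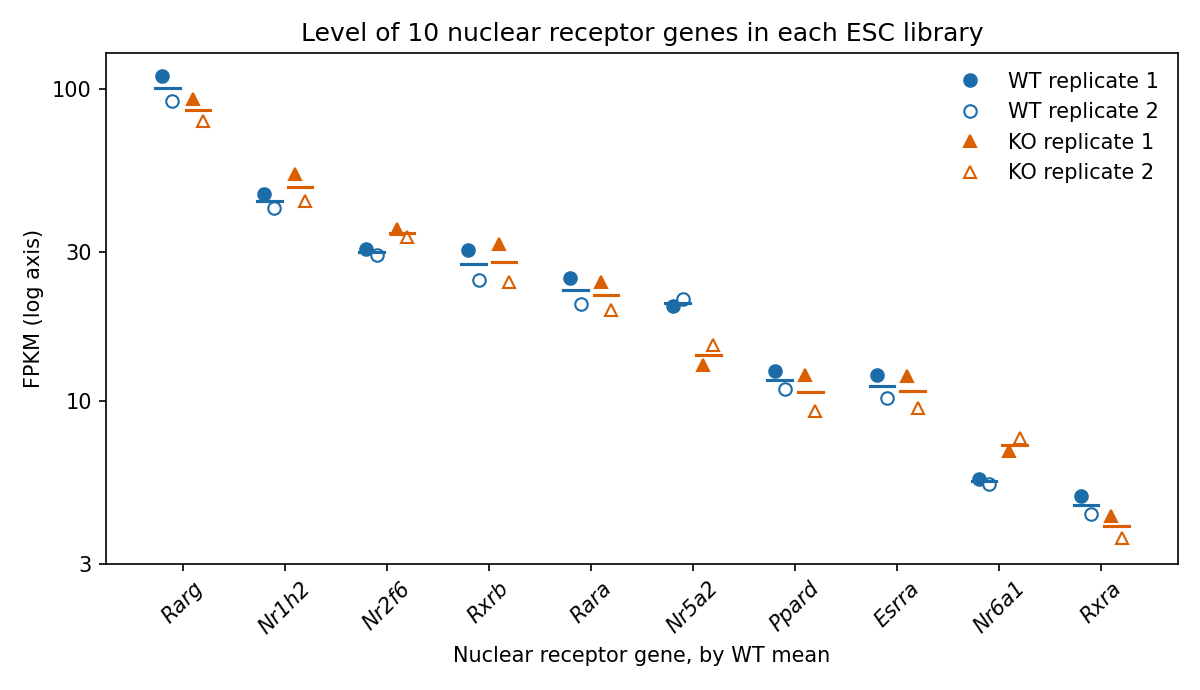
FPKM on a log axis for each of the 10 genes in WT (circles) and KO (triangles) libraries, with replicate 1 filled, replicate 2 open and a bar at the mean of the 2 libraries. Rarg stands highest in both groups and Rxra lowest, and Nr5a2 is the gene with the widest gap between the WT and the KO points.

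Rarg had the highest level of the 10 in both groups, and the order was nearly the same in WT and KO. From high to low, the WT means ran Rarg, Nr1h2, Nr2f6, Rxrb, Rara, Nr5a2, Ppard, Esrra, Nr6a1 and Rxra, with Rarg 21.7 times above Rxra. The ranges of the 2 WT libraries overlapped for 4 of the 9 neighbouring pairs. The order was therefore not resolved between Nr2f6 and Rxrb, Rxrb and Rara, Rara and Nr5a2, and Ppard and Esrra. Nr2f6 lay above Rara and Nr5a2 in both WT libraries, and Rxrb above Nr5a2. In KO, Esrra and Ppard changed places, which was also the 1 neighbouring pair that overlapped, and Rarg was 21.8 times above Rxra. Among the 17710 features with a symbol, 94.1% had a lower mean than Rarg and 53.5% a lower mean than Rxra, so all 10 were above the median of those features.

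NR5A2, a lipid-binding receptor known in ESCs and early embryos, is encoded on the minus strand of chromosome 1 (ENSMUSG00000026398.14; GRCm38, chr1:136842567-136960448). Its level was 20.1 and 21.2 FPKM in WT replicates 1 and 2, and 13.0 and 15.1 FPKM in KO replicates 1 and 2. Both KO libraries were below both WT libraries. Nr5a2 fell by 0.55 on the log2 scale, with a standard error of 0.10, a 95% interval from −0.81 to −0.30 and an adjusted p of 0.0260, which leaves 68.2% of the WT mean. The call rests on KO replicate 1: without that library the log2 fold change was −0.45 and the adjusted p 0.0597, and it was also lost without the filter on low values (0.0536) and without a variance trend (0.0648).

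NR6A1, also called GCNF, is a repressor that acts when ESCs leave pluripotency, and its gene lies on the minus strand of chromosome 2 (ENSMUSG00000063972.13; chr2:38723374-38926461). Nr6a1 stood at 5.61 and 5.40 FPKM in WT and at 6.89 and 7.57 FPKM in KO. The KO libraries were both above the WT libraries, the reverse of Nr5a2. The log2 fold change was 0.38, with a standard error of 0.11, an interval from 0.12 to 0.65 and an adjusted p of 0.0754, short of the threshold. The ratio of Nr5a2 to Nr6a1 FPKM, chosen after these values were seen, was 3.58 and 3.92 in WT and 1.89 and 2.00 in KO, and it is given as a description.

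ESRRA, whose gene lies on chromosome 19 (ENSMUSG00000024955.14; chr19:6909698-6921808), is the ERR family member of mitochondrial genes. Esrra measured 12.1 and 10.2 FPKM in WT and 12.0 and 9.46 FPKM in KO. The groups overlapped, with replicate 1 the higher library in each. The log2 fold change was −0.06 with an interval from −0.43 to 0.31 (adjusted p in limma 0.812). The Esrra feature overlaps that of Trmt112, and reads there may be shared.

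NR2F6, encoded on chromosome 8 (ENSMUSG00000002393.14; chr8:71374119-71382507), was the most abundant of the 4 receptors here that do not depend on an RXR. Nr2f6 measured 30.8 and 29.4 FPKM in WT and 35.6 and 33.5 FPKM in KO. Both KO libraries were above both WT libraries, by a small margin. The log2 fold change of 0.20, with a standard error of 0.08, did not pass in limma (adjusted p 0.167).

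Rarg was the more abundant of the retinoic acid receptor genes in every library. RARG, on chromosome 15 (ENSMUSG00000001288.15; chr15:102234938-102257719), measured 110 and 91.5 FPKM in WT and 93.1 and 79.1 FPKM in KO. KO replicate 1 lay just above WT replicate 2, so the groups overlapped. The log2 fold change of Rarg was −0.23 with an interval from −0.54 to 0.08 (adjusted p in limma 0.284). RARA, on chromosome 11 (ENSMUSG00000037992.16; chr11:98937696-98974942), measured 24.7 and 20.5 FPKM in WT and 24.1 and 19.5 FPKM in KO. These values ran in step, replicate 1 with replicate 1 and replicate 2 with replicate 2, and the log2 fold change of Rara was −0.05 with an interval from −0.40 to 0.29 (adjusted p in limma 0.830). A share within a library does not depend on how libraries are scaled to each other. Rarg made up 81.7% of the summed FPKM of Rara and Rarg in each WT library, and 79.4% and 80.2% in the KO libraries, both lower. An exact permutation test of 2 against 2 libraries cannot give a two-sided p under 0.333, and the shares are given as descriptions, with no test.

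The RXRs, the partners of the RARs, PPARD and NR1H2, were represented mostly by Rxrb. RXRB lies on chromosome 17 (ENSMUSG00000039656.17; chr17:34026033-34038403) and measured 30.6 and 24.4 FPKM in WT and 31.8 and 24.1 FPKM in KO. The spread between replicates was larger than any gap between the groups, and the log2 fold change was 0.02 with an interval from −0.39 to 0.43 (adjusted p in limma 0.950). The Rxrb feature starts before the annotated gene, which starts at 34031812, and overlaps one of H2-Ke6 and Slc39a7, so its level is uncertain. RXRA, on chromosome 2 (ENSMUSG00000015846.14; chr2:27677201-27763319), measured 4.95 and 4.34 FPKM in WT and 4.28 and 3.63 FPKM in KO. The KO values lay below the WT values, although KO replicate 1 was close to WT replicate 2, and the log2 fold change of Rxra of −0.23 did not pass in limma (interval −0.58 to 0.12, adjusted p 0.339). Rxrb supplied 86.1% and 84.9% of the summed RXR FPKM in WT and 88.1% and 86.9% in KO. The 4 partner genes Rara, Rarg, Ppard and Nr1h2 summed to 5.45 and 5.72 times the RXR FPKM in WT and 5.07 and 5.46 times in KO, which overlapped.

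PPARD and NR1H2 sense lipids. PPARD, on chromosome 17 (ENSMUSG00000002250.16; chr17:28127351-28301469), measured 12.4 and 10.9 FPKM in WT and 12.1 and 9.24 FPKM in KO. The groups overlapped, and the log2 fold change of Ppard was −0.14 with an interval from −0.52 to 0.24 (adjusted p in limma 0.590). The span given is that of the feature, and the annotated gene starts later, at 28232700. The Ppard feature covers those of Scube3, Zfp523 and Def6. Scube3, named after its value was seen, was higher in KO (log2 fold change 1.24, adjusted p in limma 0.0225), so the Ppard level may hold reads of a neighbour. NR1H2, on chromosome 7 (ENSMUSG00000060601.13; chr7:44549614-44554545), measured 46.0 and 41.5 FPKM in WT and 53.6 and 43.8 FPKM in KO. KO replicate 2 fell between the WT libraries, and the log2 fold change of Nr1h2 was 0.15 with an interval from −0.14 to 0.44 (adjusted p in limma 0.453). The intervals of Esrra, Rara, Rarg, Rxra, Rxrb, Ppard and Nr1h2 all span 0, and with 2 libraries a group they do not show that the levels were equal.

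**Figure D2:**
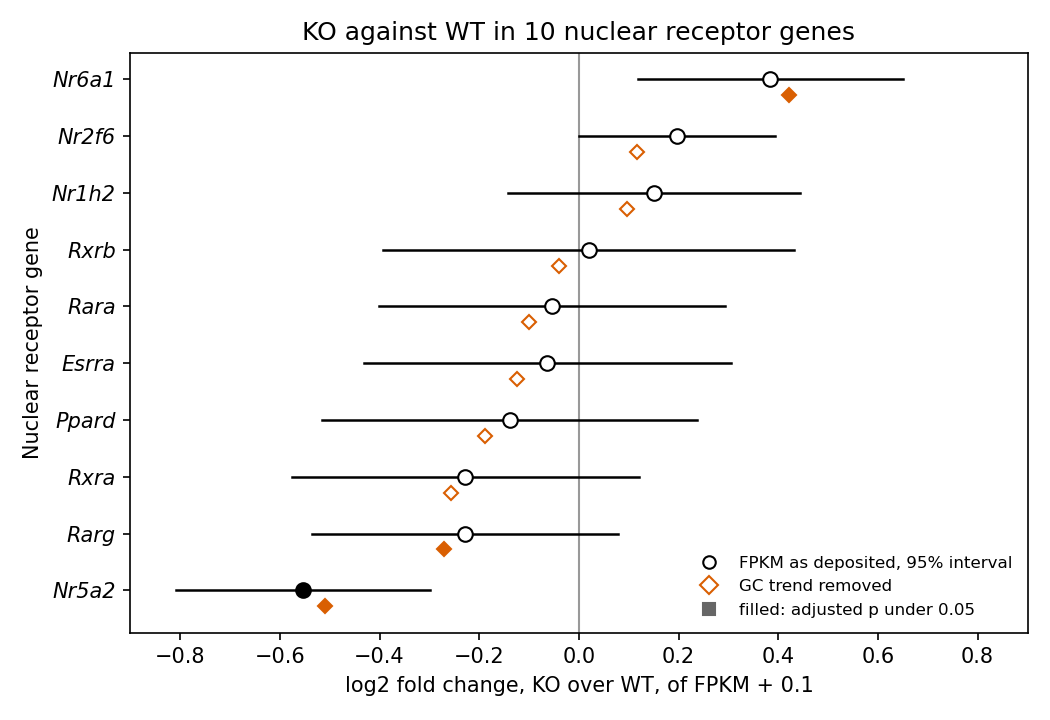
Log2 fold change of KO over WT, on FPKM + 0.1, for each of the 10 genes; circles with bars are limma estimates with 95% intervals from the deposited FPKM and diamonds the estimates after removal of the trend with transcript GC content, filled where the adjusted p was under 0.05. Nr5a2 is filled in both forms, and Nr6a1 and Rarg are filled only as diamonds.

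Most of the 10 genes differed between replicates in the same way in WT and KO. Replicate 2 was below replicate 1 for 9 of the 10 in WT and 8 of the 10 in KO, against 49.7% and 52.1% of the 11944 tested features with a symbol. Nr5a2 was the exception in WT, and Nr5a2 and Nr6a1 were the exceptions in KO. The ratio of replicate 2 to replicate 1 ran from 0.799 to 1.05 in WT and from 0.759 to 1.16 in KO, and over the 10 genes the log2 differences in WT and KO had a Pearson correlation of 0.89 and a Spearman correlation of 0.81. These are points from the same 4 libraries, and over all 12990 features the values were 0.07 and 0.39.

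The difference between replicates moved with the base composition of the transcripts. The longest protein-coding transcript in the GENCODE annotation had a GC content of 43.2% for Nr5a2 and 48.3% for Nr6a1, and of 57.0% (Rxra) to 67.3% (Nr2f6) for the others, with a median of 59.5% over the 10 and 50.5% over 11142 tested features with a value. Over those features the Spearman correlation of GC content with the difference between replicate 2 and replicate 1 was −0.57 in WT and −0.59 in KO. With the log2 fold change between the groups it was 0.10. Over the 10 genes, as a description, the same correlations were −0.37 in WT, −0.58 in KO and 0.44 with the log2 fold change. The 2 genes with the lowest GC content, Nr5a2 and Nr6a1, were also the only ones of the 10 with any higher value in replicate 2, Nr5a2 in both groups and Nr6a1 in KO, as the plot of replicate difference by GC content shows.

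**Figure D3:**
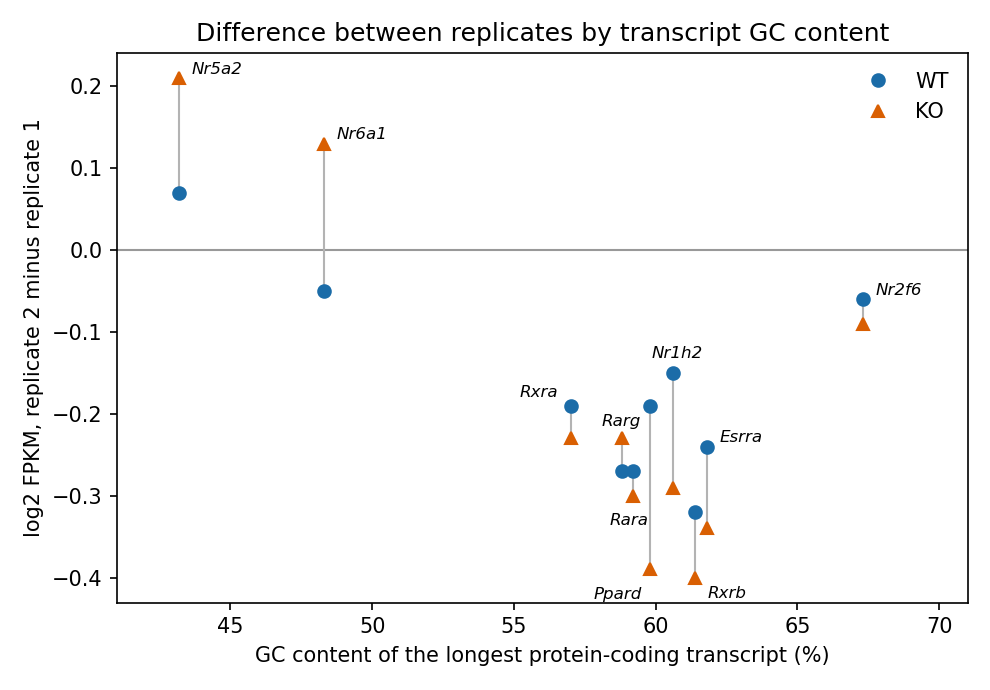
Difference in log2 FPKM between replicate 2 and replicate 1, for WT (circles) and KO (triangles), by the GC content in % of the longest protein-coding transcript of each of the 10 genes. Nr5a2 and Nr6a1, at 43.2% and 48.3%, lie well above the other 8 genes except Nr2f6, at 67.3%, which is near 0.

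With the trend with GC content removed within each library, an alternative chosen after seeing the data, 3 of the 10 genes passed, and 31.0% of 11142 features did. Nr5a2 became 20.7 and 19.9 FPKM in WT and 13.8 and 14.6 FPKM in KO, and its log2 fold change was −0.51 (adjusted p in limma 0.00148). Rarg became 106 and 97.7 FPKM in WT and 86.6 and 82.3 FPKM in KO, with the groups apart, and passed at −0.27 (0.0152). Nr6a1 passed at 0.42 (0.0104), from 5.60 and 5.26 FPKM in WT and 7.05 and 7.57 FPKM in KO. These 3 genes keep the direction they had before, and Nr5a2 keeps its call. Replicate 2 was still below replicate 1 for 8 of the 10 genes in WT and 7 in KO. On this scale the 2 groups did not overlap for 8 of the 10 genes, all but Rara and Rxrb, against 68.7% of features. The log2 fold change of Rxrb turned from 0.02 to −0.04, and neither value passed.

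**Figure D4:**
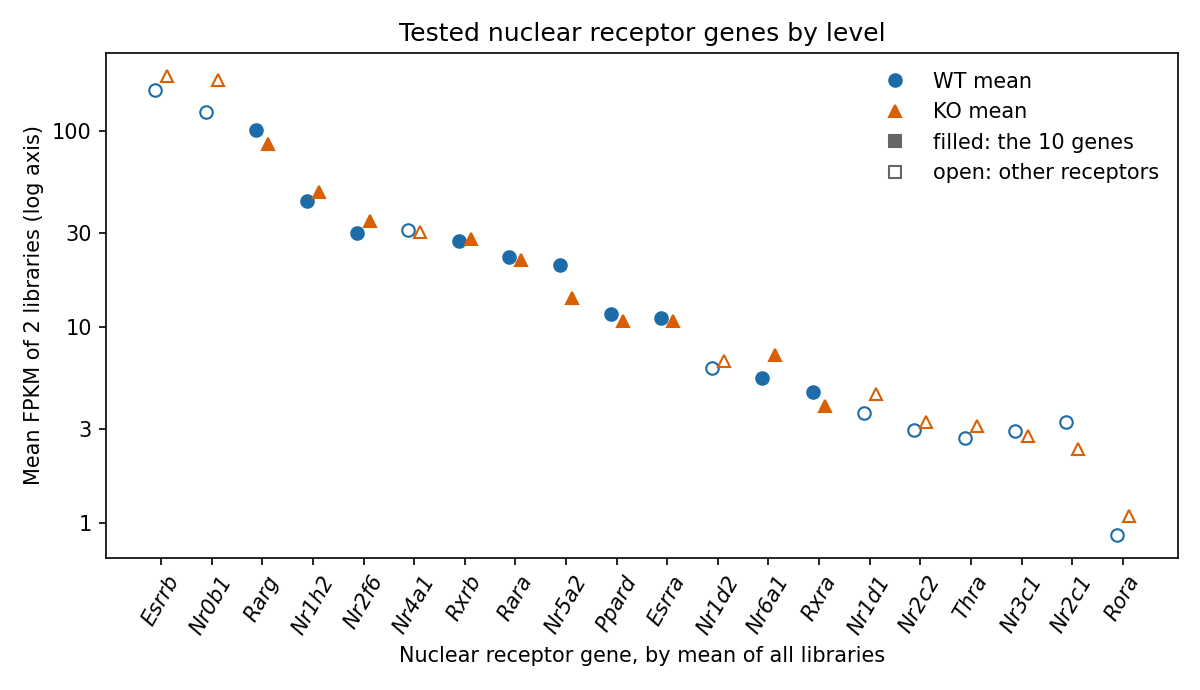
Mean FPKM of the 2 WT libraries (circles) and the 2 KO libraries (triangles), on a log axis, for the 20 nuclear receptor genes tested, with the 10 genes described here filled and the other receptors open. Only Esrrb and Nr0b1 stand above Rarg.

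Of the other 39 receptor genes of the family, 36 had a feature, 26 of these fell below the mean of 0.5 FPKM needed for the test and 19 stayed under 0.1 FPKM in every library. Among the 20 receptors tested, Rarg ranked after Esrrb and Nr0b1, both known in the pluripotency network. Nr0b1, which encodes DAX1, a receptor without a DNA-binding domain and a known partner and target of NR5A2 in ESCs, measured 127 and 123 FPKM in WT and 187 and 176 FPKM in KO. Nr0b1 was the 1 of these 10 other receptors that passed, at a log2 fold change of 0.54 (adjusted p in limma 0.0109), opposite in direction to Nr5a2. Esrrb, the most abundant, measured 175 and 147 FPKM in WT and 202 and 180 FPKM in KO, which did not overlap but did not pass (log2 fold change 0.25, adjusted p in limma 0.2005). Another feature with the symbol Esrrb overlaps this one, and the feature with the higher mean was used. The median log2 fold change of the 10 other receptors tested was 0.16. Over all features 12.5% passed, and the median was −0.02. Both KO libraries were above both WT libraries for 6 of the 10 and below them for 1, against 27.0% and 31.7% of all features.

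Coregulators carry the receptors' activity to chromatin. None of 14 tested coactivator genes passed in limma, against 12.5% of all features, and 4 of them had an unadjusted p under 0.05, 2 higher and 2 lower in KO. Their log2 fold changes ran from −0.41 to 0.30 with a median of −0.01. Both KO libraries were above both WT libraries for 5 and below them for 5, against 27.0% and 31.7% of all features. The most abundant, the arginine methyltransferase gene Prmt1, gave −0.22 (adjusted p in limma 0.182). Of 10 corepressor genes, Lcor, a ligand-dependent corepressor, passed with a log2 fold change of −0.58 (0.0310), from 5.57 and 5.94 FPKM in WT to 3.97 and 3.66 FPKM in KO, and its feature overlaps others without a symbol. The feature of Sin3a, the most abundant of that list, is merged with Man2c1 and did not pass (0.09, adjusted p 0.452), and the list's median was −0.01. The call of Lcor was lost without WT replicate 2 (−0.54, adjusted p 0.0678) and without KO replicate 2 (−0.52, 0.0792).

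Genes of retinoid supply, those that carry vitamin A and make or clear retinoic acid, gave 10 tested of 20. Of these, 2 passed, both higher in KO, against 6.85% of all features, with a median log2 fold change of 0.10 over the list. Another 4 had both KO libraries below both WT libraries and did not pass, where 31.7% of all features lay below. Crabp1, a cytosolic retinoic acid binding protein, rose from 6.41 and 5.13 FPKM to 8.73 and 9.94 FPKM (log2 fold change 0.69, adjusted p in limma 0.0342). Fabp5, which carries fatty acids and can hand retinoic acid to PPARD, rose from 18.8 and 19.5 FPKM to 25.2 and 24.7 FPKM (0.38, 0.0332). KO libraries were above WT libraries for both, but the call of Crabp1 was lost without KO replicate 2 (0.60, adjusted p 0.0572), and that of Fabp5 with any 1 library left out (0.36 to 0.41, 0.0585 to 0.110). Adh5, the most abundant of the list, gave −0.03 (adjusted p 0.783).

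**Figure D5:**
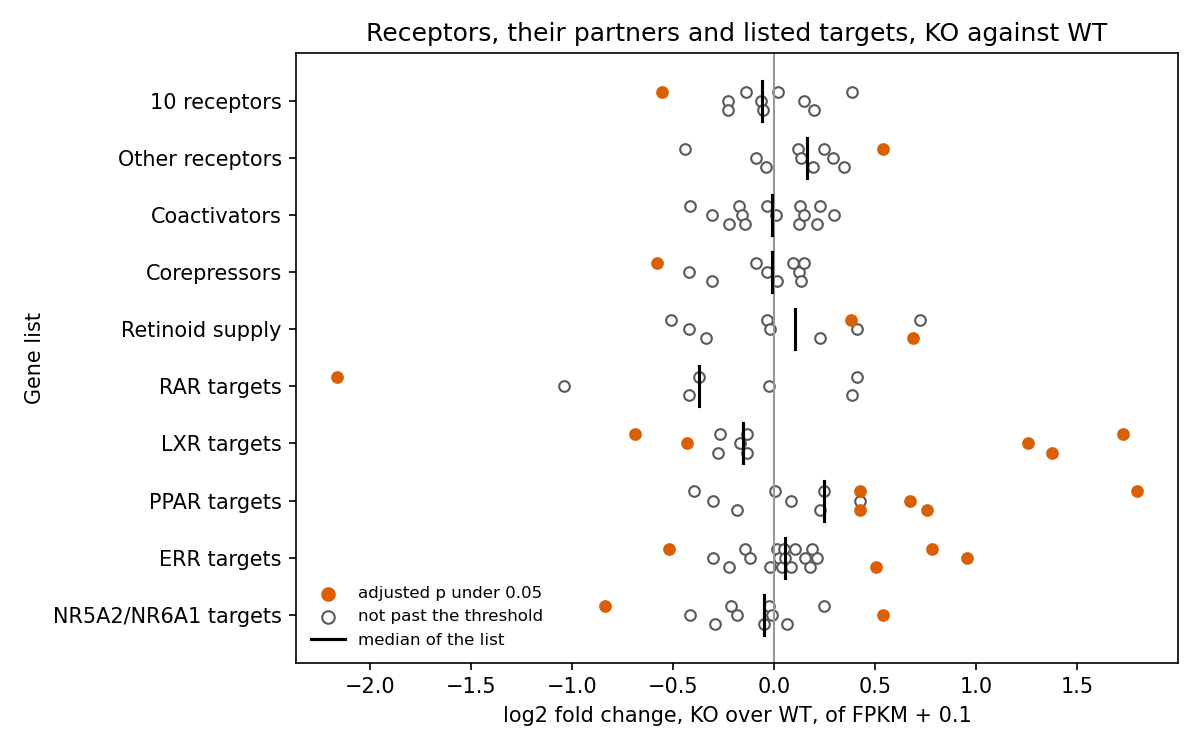
Log2 fold change of KO over WT, on FPKM + 0.1, of each tested gene in the lists of receptors, partners, retinoid supply and textbook targets, with genes at an adjusted p under 0.05 filled and a bar at the median of each list. The filled points at the right belong to LXR targets (Apoe, Abca1, Pltp) and PPAR targets (Fabp3), and the one at the far left is the RAR target Meis2 at −2.17.

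Textbook targets of these receptors were read from lists, and a gene on a list has other regulators too. Of 14 RAR target genes, 7 were tested, with a median log2 fold change of −0.37. Of the 7, 1 passed, lower in KO, against 5.60% of all features. Both KO libraries were below both WT libraries for 4 of the 7 and above them for 1, against 31.7% and 27.0% of all features. Meis2, a homeobox gene induced by retinoic acid, was the 1 that passed: it measured 4.87 and 4.92 FPKM in WT and 0.93 and 1.10 FPKM in KO and fell by 2.17 on the log2 scale (adjusted p in limma 0.00256). Tgm2, a transglutaminase and the most abundant of that list, gave 0.39 and did not pass (0.0928).

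Of 10 LXR target genes tested, 3 rose and 2 fell, against 6.85% of all features higher and 5.60% lower. The receptor gene Nr1h2 itself did not pass. Nr1h3, another receptor gene on that list, named after its value was seen, was too low for the test. It measured 0.15 and 0.12 FPKM in WT and 0.48 and 0.49 FPKM in KO. Apoe, the apolipoprotein of cholesterol efflux, measured 482 and 497 FPKM in WT and 1632 and 1610 FPKM in KO, a log2 fold change of 1.73 (adjusted p in limma 0.00115). The efflux transporter gene Abca1 rose by 1.37 (0.00558), from 2.38 and 2.09 FPKM to 5.59 and 6.32 FPKM, and the phospholipid transfer protein gene Pltp by 1.26 (0.00316), from 15.8 and 14.0 FPKM to 37.2 and 34.3 FPKM. The Pltp feature overlaps Ctsa and Neurl2. The desaturase gene Scd1 fell by 0.69 (0.00813), from 23.5 and 22.1 FPKM to 14.1 and 14.1 FPKM, and the related Scd2, named after its value was seen, fell by 0.43 (0.0170; 0.0590 without the variance trend). The other 5 genes tested had log2 fold changes below 0 and did not pass, and the list's median was −0.15.

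Of 13 PPAR target genes tested, 5 passed, all higher in KO, against 6.85% of all features. The median log2 fold change was 0.25 over the list, while Ppard did not pass. Another 3 had log2 fold changes below 0. Both KO libraries were above both WT libraries for 8 of the 13, against 27.0% of all features. They were below for 2, without passing, against 31.7%. Fabp3, a fatty acid binding protein, measured 70.8 and 77.0 FPKM in WT and 246 and 269 FPKM in KO, a log2 fold change of 1.80 (adjusted p in limma 0.00119), and its feature overlaps Zcchc17. Cat, the catalase gene, rose by 0.76 (0.00522), from 25.4 and 25.0 FPKM to 43.0 and 42.5 FPKM. The lipid droplet gene Plin2 rose by 0.68 (0.0223). Ech1, a dienoyl-CoA isomerase gene named after its value was seen, rose by 0.43 (adjusted p in limma 0.0427). Both of these calls hung on single libraries: Plin2 gave 0.57 without KO replicate 2 (0.0539) and Ech1 0.31 without KO replicate 1 (0.139).

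Of 20 ERR target genes tested, 3 rose and 1 fell, with a median log2 fold change of 0.05. Over all features 6.85% passed higher and 5.60% lower. Suclg1, a succinyl-CoA ligase subunit of the citric acid cycle, rose by 0.95 (adjusted p in limma 0.00332), from 43.3 and 40.6 FPKM to 79.8 and 82.6 FPKM. It lies on chromosome 6 between Eif2ak3 and Gata2, where 102 of 109 tested features were higher in KO, with a median of 0.87; the part of that stretch in the Suclg1 value was not tested. Sod2, the mitochondrial superoxide dismutase gene, rose by 0.51 (0.0165; 0.0559 without the variance trend), and a feature that merges Cpt1b, a carnitine palmitoyltransferase gene, with Chkb rose by 0.78 (0.0119). Cycs, the cytochrome c gene, fell by 0.52 (0.0269), from 92.6 and 103 FPKM to 63.9 and 72.7 FPKM, and missed the threshold without KO replicate 1 (−0.43, 0.0547). Atp5b, an ATP synthase subunit and the most abundant of the list, gave 0.03 (0.869).

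Of 11 target genes of NR5A2 or NR6A1 tested, 1 passed higher and 1 lower in KO, with a median log2 fold change of −0.05. In all, 3 had log2 fold changes above 0 and 8 below. Both KO libraries were above both WT libraries for 3 and below them for 5, against 27.0% and 31.7% of all features. Ccnd1, the cyclin D1 gene, measured 56.4 and 55.9 FPKM in WT and 31.1 and 31.7 FPKM in KO and fell by 0.84 (adjusted p in limma 0.00410), the same direction as Nr5a2. Nr0b1 rose, as given above. Pou5f1, the gene on which NR5A2 and NR6A1 are known to act in opposite ways, measured 1620 and 1457 FPKM in WT and 1589 and 1389 FPKM in KO, and the groups overlapped (log2 fold change −0.05, adjusted p 0.799). Over the 92 tested genes of partners, retinoid supply and targets together, 14 rose and 6 fell, against 6.85% of all features higher and 5.60% lower, and the median was 0.01.

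The ESC label held against its markers: none of the 10 ESC marker genes was under 1 FPKM in all libraries, and they summed to 7197 and 7016 FPKM in WT and 6863 and 6433 FPKM in KO. Of the 10, 1 passed higher and 3 lower in KO, against 6.85% and 5.60% of all features. Their median log2 fold change was −0.20, with 8 below 0 and 2 above. Both KO libraries were below both WT libraries for 6 of the 10 and above them for 2, against 31.7% and 27.0% of all features. Klf4, Tdgf1 and Utf1 fell, by 0.46, 0.36 and 0.43 on the log2 scale, and Fgf4 rose by 0.30 (adjusted p in limma 0.0178, 0.0322, 0.0491 and 0.0493), and Dppa5a was the most abundant. Of these only Klf4 kept its call with each library left out, though not without the variance trend (0.0582): Tdgf1 gave −0.32 without WT replicate 2 (0.123), −0.36 without KO replicate 1 (0.0945) and −0.37 without KO replicate 2 (0.0825), Utf1 −0.37 without WT replicate 1 (0.0806) and −0.32 without KO replicate 2 (0.140), and Fgf4 0.26 to 0.33 with any 1 library left out (0.116 to 0.197). Fibroblast markers summed to between 1.91 and 3.31 FPKM, with 5 of the 6 measured under 1 FPKM in every library and none at 0 in all, and 8 of 8 endoderm markers were under 1 FPKM throughout, with sums between 1.18 and 1.96 FPKM. The 8 neural markers summed to 135 and 128 FPKM in WT and 97.7 and 89.8 FPKM in KO, which is mostly Tubb3; Tubb3 fell by 0.70 (0.00827), and Sox1, Neurod1 and Pax6 rose by 2.34, 2.11 and 1.72 (0.00169, 0.00746 and 0.0198), of which the Sox1 and Pax6 features overlap those of other genes and Pax6 missed the threshold without the filter (0.0536). Of the 6 neural markers tested, 3 passed higher and 1 lower in KO, against 6.85% and 5.60% of all features. In all, 5 of the 6 had log2 fold changes above 0 and 1 below, with a median of 1.28. The 8 mesoderm markers summed to 3.44 and 3.05 FPKM in WT and 2.12 and 2.37 FPKM in KO. Eomes, the 1 of them tested, fell by 1.73 (adjusted p in limma 0.0154). The part of these shifts in the receptor values was not tested.

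The libraries differed in further ways. Features without a symbol held 26.8% and 37.3% of the summed FPKM in WT and 19.0% and 18.1% in KO, and 4 Y-linked genes, chosen after their values were seen, summed to 1.75 and 2.54 FPKM in WT and 64.6 and 78.9 FPKM in KO. Their part in the receptor values was not tested. The targeted gene, listed as Arntl, measured 6.05 and 6.29 FPKM in WT and 5.95 and 5.92 FPKM in KO (log2 fold change −0.06, adjusted p in limma 0.750); a frameshift need not lower the RNA, so this level does not check the labels. FPKM hold no read numbers, and the depth of each library is unknown.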

How the data were processed

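RNA-seq was analysed in 2 WT and 2 KO libraries of mouse ESCs, grouped by their labels. The authors aligned reads to GRCm38 with TopHat2 2.1.1 and Bowtie2 2.3.0 and estimated expression with Cufflinks 2.2.1, and the deposited values are FPKM per feature. The sources used here do not state how Cufflinks scaled the libraries, nor whether the reads kept their strand, so overlapping genes are uncertain. FPKM keep no depth, and the precision of a value is judged from differences between replicates, in that feature and in the others tested.

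The 10 genes were found by symbol. Coordinates are those of the deposited features with 1 added to each start, and they can differ from those of the annotated genes. The annotated Rara gene starts at 98927818, before its feature. The test used log2(FPKM + 0.1) and kept 12990 features whose mean reached 0.5 FPKM, leaving out 6655. The groups were contrasted by limma 3.58.1 (R 4.3.3) with a variance trend and Benjamini-Hochberg adjustment over all features tested; a gene passed at an adjusted p under 0.05. The fit was tested on simulated data. Motifs were sought in RefSeq promoter windows, and transcript GC content was taken from the GENCODE transcripts. Besides the 10 genes, each list names the genes that passed, at most 4 by smallest adjusted p, and its most abundant gene, with exceptions marked; 1 gene that the rule names is not reported here. The genes and lists were chosen with earlier results of these data known. Alternatives were pseudocounts of 1 and 0.01, no filter, a mean of at least 1, the replicate block, summing by symbol, no variance trend, leaving out each library, and scaling by quantiles or by the median of ratios; scaling to the sum of features with a symbol and removing the GC trend (lowess within each library), alone or with the block, were added after seeing the data. Python 3.11.15 was used for the other steps.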

Additional observations from a re-analysis of the deposited data

How the results depend on the processing

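Over 16 alternatives, 137 of 160 fits of the 10 genes kept their direction and their side of the threshold and 11 turned their sign, all of them in Esrra, Rara, Rxrb and Ppard. The number of the 10 genes that passed was 1 as reported, 0 without the filter and without the variance trend, 3 with the GC trend removed, and 0 to 1 when a library was left out. Equal replicate numbers are not known to mark a shared preparation; with the number as a block, 4 of the 10 passed, where 31.2% of all features did, and 5 with the block and the GC trend removed, where 45.6% did. Nr5a2 gave −0.55 without the filter or the variance trend and −0.66 to −0.45 with a library left out, and under the block its adjusted p in limma was 0.00527. Under the block Rarg passed at −0.23, Nr2f6 at 0.20 and Nr6a1 at 0.38; with the GC trend removed Rarg passed at −0.27 and Nr6a1 at 0.42, and with both Rarg passed at −0.27, Nr6a1 at 0.42, Nr2f6 at 0.12 and Ppard at −0.19. Signs turned for Esrra (0.0094) and Rara (0.019) under the sum of features with a symbol and for Rxrb (−0.039) with the GC trend removed, with and without the block; with a library left out Esrra ran from −0.23 to 0.11, Rara from −0.21 to 0.10, Rxrb from −0.18 to 0.22 and Ppard from −0.33 to 0.055. A lone library left in a group is assumed there to vary like the others. The other receptors gave 1 gene as reported, 2 under the block, 3 with the GC trend removed, 4 with both and 1 to 2 with a library left out. The lists of partners, supply and targets gave 20 as reported, 13 without the filter, 13 without the trend, 38 under the block, 38 with the GC trend removed, 51 with both and 16 to 19 with a library left out; the markers gave 9, then 5 without the filter, 6 without the trend, 14 under the block, 13 with the GC trend removed, 16 with both and 6 to 7. Of the list genes named, Crabp1, Fabp5, Ech1, Cycs, Tdgf1, Utf1 and Fgf4 lost their calls both without the filter and without the variance trend, Lcor, Plin2 and Pax6 only without the filter of these settings, and Scd2, Sod2 and Klf4 only without the trend; Tdgf1 and Utf1 also lost theirs under quantile scaling and the sum of features with a symbol, Utf1 under median-of-ratios scaling and Fgf4 with a pseudocount of 0.01. Over all features, 890 rose and 728 fell as reported, against 571 and 380 without the filter, 708 and 457 without the variance trend, 1807 and 2245 under the block, 1796 and 1661 with the GC trend removed, 2486 and 2595 with both, and 1076 and 518 under the sum of features with a symbol; over 2-fold, 353 and 185 became 146 and 85 with a pseudocount of 1, and 305 to 497 and 257 to 323 with a library left out. The causes were not tested.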
